A study of Mus musculus with 16 samples.

Results

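Bile acid and biliary transporters are the membrane proteins that carry bile acids, phospholipid and organic anion conjugates into and out of the hepatocyte and along the bile ducts. The set described here holds 10 genes taken by name, Slc10a1, Slc10a2, Slco1a1, Slco1a4, Slco1b2, Abcb11, Abcb4, Abcc2, Abcc3 and Abcc4, of 25803 genes in the joined count tables. All 10 were present once each and all 10 passed the filter on low counts, which left 14488 genes for testing. RNA sequencing libraries were made from livers of male mice given a high-fat diet (HFD) for 12 weeks, 4 libraries in each of 4 groups. Fasted control and fasted LKO livers were taken after 16 h without food. Refed control and refed LKO livers were taken after the 16 h fast and 6 h of renewed feeding. LKO is the label for loss of Cpt1a, which the series title places in the liver, and control animals are labelled only as Control (WT in the series design). The Cre line or vector, the strain and the age are not given in the sources used here. Nothing in the labels says whether the 4 libraries of a group came from separate animals, so the p-values measure the spread between these libraries.

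Bile acids circulate between liver and gut. Hepatocytes take them from portal blood across the basolateral membrane with the sodium-dependent carrier NTCP (Slc10a1) and with organic anion transporting polypeptides (Slco1a1, Slco1a4, Slco1b2). They pump them into the canaliculus with the bile salt export pump BSEP (Abcb11). MDR2 (Abcb4) flips phosphatidylcholine into bile, which shields the ducts from bile acid micelles, and MRP2 (Abcc2) exports bilirubin and glutathione conjugates. MRP3 (Abcc3) and MRP4 (Abcc4) return bile acids and conjugates to blood. ASBT (Slc10a2) takes bile acids up across the apical membrane of ileal enterocytes and of cholangiocytes, the cells that line the bile ducts. Farnesoid X receptor (FXR, Nr1h4), a nuclear receptor for bile acids, is a known regulator of several of these genes.

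Library totals ran from 14721601 to 24618230 counts, and replicate libraries differed by more than sampling noise in every pair (chi-square per degree of freedom 15.4 to 78.5). Values below are CPM, the count of a gene set against its library total after scaling of the totals. Cpt1a, the targeted gene, stood at 487 ± 83.2 CPM in fasted control and 101 ± 17.3 CPM in fasted LKO, and at 457 ± 137 and 54.2 ± 16.6 CPM in the refed groups (SD, n = 4), with no overlap in either state (exact two-sided permutation test, p = 0.0286, the smallest that 4 against 4 allows). Hepatocyte markers were abundant in every library, with 8 of 8 genes measured and a summed level of 61333 to 89919 CPM. Library S44 (fasted LKO) stood apart in biliary keratins, where Krt19 reached 29.0 CPM while no other library exceeded 2.22 CPM. A measurement on bulk liver cannot tell fewer cells of a type from less RNA per cell.

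Per kilobase of gene length, a scale on which genes can be set against each other, the sinusoidal uptake carriers were the most abundant members (the plot of levels per length). Slc10a1 led in every group, with 301 and 199 CPM per kilobase in the fasted control and LKO livers and 267 and 239 in the refed ones. Slco1b2 came next at 164 and 124 CPM per kilobase in the fasted livers and 158 and 137 in the refed ones. In all 4 groups the lowest Slc10a1 library lay above the highest Slco1b2 library, and the lowest Slco1b2 library lay above the highest library of the next gene, Abcc3.

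Most neighbours in the middle of the order overlapped. In fasted control, Abcb11 (38.9 CPM per kilobase), Abcc2 (36.5), Abcb4 (31.4) and Slco1a1 (18.4) each overlapped with their neighbour in the order, and Slco1a1 also overlapped with Slco1a4 (8.61). In fasted LKO the order changed: Abcb4 (55.5 CPM per kilobase) overlapped with Abcc3 (59.1) and lay wholly above Abcc2 (40.1). Slc10a2 and Abcc4 were at the bottom in all 4 groups and did not overlap with each other in any of them. In the fasted control, fasted LKO, refed control and refed LKO groups, Slc10a2 had means of 2.26, 0.69, 4.58 and 4.60 CPM per kilobase, and Abcc4 had 0.22, 0.27, 0.23 and 0.30. Abcc4 rested on 16 to 52 raw counts per library and Slc10a2 on 30 to 548, so that counting error weighs more on them than on the other 8 members, which had at least 409 counts in each library.

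**Figure D1:**
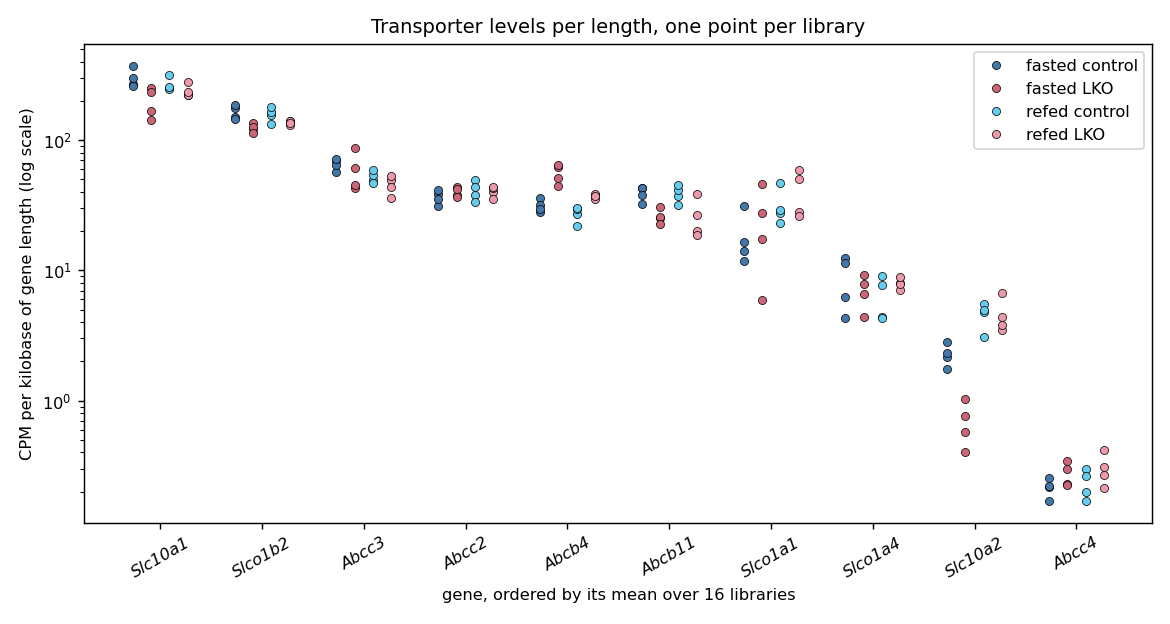
CPM per kilobase of gene length on a log axis for the 10 transporters, ordered by their mean over 16 libraries; each point is a library, coloured by group. Slc10a1 and Slco1b2 sit at the top in all groups, Abcc4 at the bottom between 0.17 and 0.42 CPM per kilobase, and Slc10a2 is the member whose groups lie farthest apart.

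The fasted comparison asked how the transporters of control and LKO livers differ without food. In fasted LKO, 1 member rose (Abcb4) and 3 fell (Slc10a1, Slc10a2 and Slco1b2), while Abcb11 was lower in every LKO library than in every control library without passing the test. That is 4 of 10 members called by edgeR's quasi-likelihood test at a Benjamini-Hochberg adjusted p under 0.05, beside 12.2% of the 14488 genes tested (5.75% higher and 6.48% lower). The median log2 fold change was −0.22 over the 10 members and 0.02 over all genes tested. The groups did not overlap for 5 of the 10 members, beside 16.9% of genes tested. All adjusted p-values below are from this edgeR test unless another tool is named.

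Slc10a2 (chromosome 8 from 5133219 to 5155351, minus strand, in the coordinates of the deposited tables, mm39 per the submitters' processing notes) had the largest fitted change of the members. Fasted control values, given here and below in the order of libraries S40 to S43, were 8.94, 11.7, 9.67 and 7.29 CPM, whereas the fasted LKO libraries (S44 to S47) held 2.40, 3.17, 1.68 and 4.29 CPM. All 4 LKO libraries lay below all 4 control libraries, and the LKO mean was 30.7% of the control mean. The fitted log2 fold change of −1.71 had an SE of 0.28 (adjusted p = 0.00112), and all 8 fits that left out 1 fasted library kept the call, with values from −1.96 to −1.53.

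Slc10a2 is placed in cholangiocytes by what is known of normal liver, so the cholangiocyte markers are given beside it. All 12 markers of the list were in the tables and 8 passed the filter. Their summed level ran from 135 to 158 CPM in the control and from 121 to 192 CPM in the LKO livers when fasted, and from 141 to 161 and 133 to 162 CPM when refed. In the fasted comparison 0 of the 8 were called, 6 were higher and 2 lower, and their median log2 fold change was 0.32. Krt19 was at 29.0 CPM in S44 and 1.12 to 1.24 CPM in S45 to S47, against 0.99 to 2.13 CPM in fasted control. Epcam was at 7.89 CPM in S44 and 0.91 to 1.91 CPM in S45 to S47, against 1.40 to 2.33 CPM. Pkhd1, picked after its values were seen, was lower in every fasted LKO library (1.20 to 2.42 CPM) than in every fasted control library (2.65 to 3.34 CPM). Cftr and Sctr, a chloride channel and the secretin receptor of these cells, were at 0 to 0.15 CPM in every library. S44, the library with the high keratins, held Slc10a2 at 2.40 CPM, within the range of the other 3 fasted LKO libraries. Without S44 the fall of Slc10a2 was still called. Of 7 intestinal epithelium genes, Fabp6, Sis and Cdx2 were not in the tables used here, and Fabp2, a fatty acid binding protein at 167 to 172 CPM in fasted control, rose in fasted LKO (0.74, SE 0.10, adjusted p = 3.0e-04).

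Abcb4 (chromosome 5 from 8943717 to 9009231, plus strand) moved the other way. Its levels were 266, 336, 299 and 278 CPM in fasted control and 584, 418, 604 and 478 CPM in fasted LKO. Every LKO library lay above every control library. The LKO mean was 1.77 times the control mean, with a log2 fold change of 0.82 (SE 0.12, adjusted p = 7.5e-04), called in all 8 fits that left out 1 fasted library. The other canalicular genes did not follow it. Abcb11 (chromosome 2 from 69068626 to 69172960, minus strand) stood at 166, 220, 221 and 193 CPM in fasted control and at 130.5, 132, 117 and 158 CPM in fasted LKO. The groups just failed to touch, with 158 CPM as the highest LKO value and 166 CPM as the lowest control value. Its log2 fold change of −0.57 (SE 0.19, 95% interval −0.97 to −0.17) missed the threshold at an adjusted p of 0.0601. DESeq2 called it (adjusted p = 0.025), as did the fit of the 2 fasted groups alone (0.020), a filter at 5 CPM (0.049), and the fits without S47 (0.048), S52 (0.017) or S54 (0.045). Abcc2 ranged from 266 to 356 CPM in fasted control and from 310 to 375 CPM in fasted LKO, overlapping groups, with a log2 fold change of 0.13 (95% interval −0.12 to 0.39, adjusted p = 0.521).

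Among the uptake carriers the 2 most abundant fell. Slc10a1 (chromosome 12 from 80999957 to 81015479, minus strand) stood at 591, 819, 663 and 576 CPM in fasted control and at 316, 553, 513 and 367 CPM in fasted LKO. The groups did not overlap, S44 and S47 being the lowest LKO libraries. Its log2 fold change of −0.60 was called (SE 0.16, adjusted p = 0.0255). This call was lost without S41 (adjusted p 0.086), S44 (0.079) or S47 (0.064) and with only the 2 fasted groups in the fit (0.080).

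Slco1b2 (chromosome 6 from 141575244 to 141632372, plus strand) stood at 740, 874, 909 and 716 CPM in fasted control and at 601, 673, 618 and 555 CPM in fasted LKO. Here too the groups did not overlap, and a log2 fold change of −0.41 was called (SE 0.11, adjusted p = 0.0195). The call was lost without S41 (0.058), S42 (0.056) or S44 (0.051) and with only the fasted groups fitted (0.051). Without S41 or without S44 the number of members called was thus 2, Slc10a2 and Abcb4. Of all genes tested, 6.48% were called lower in fasted LKO. Hepatocyte markers moved with these carriers: 7 of the 8 were lower in fasted LKO, 2 of them called (Ttr and Asgr1), with a median log2 fold change of −0.37. The summed level of the 8 was 72640 to 80573 CPM in fasted control and 61333 to 70705 CPM in fasted LKO. Most of that sum was Alb, with means of 48203 and 39508 CPM. Apoa1 was higher in fasted LKO, with means of 11046 and 14275 CPM. In the refed livers too, 7 of the 8 were lower in LKO, with 0 called and a median of −0.22. The part of these marker shifts in the lower Slc10a1 and Slco1b2 was not tested.

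The other 2 uptake carriers spread widely within groups. Slco1a1, a male-predominant carrier in mouse liver, stood at 87.2, 166, 74.2 and 61.9 CPM in fasted control and at 145, 92.4, 245 and 31.5 CPM in fasted LKO. The LKO libraries included both the highest and the lowest fasted value, and the log2 fold change of 0.40 had a 95% interval from −0.58 to 1.38 (adjusted p = 0.632). Slco1a4 ranged from 27.5 to 80.4 CPM in fasted control and from 28.1 to 59.3 CPM in fasted LKO (log2 fold change −0.30, interval −0.95 to 0.36, adjusted p = 0.594). Slco1a1, Slco1a4 and Slco1b2 lie in the same cluster of related genes on chromosome 6, and how the counting dealt with reads shared between copies is not given in the sources used here. Of their neighbours in that family, Slco1a5 was at most 0.17 CPM and Slco1a6 at most 0.37 CPM in any library.

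The pumps that return bile acids to blood were not called. Abcc3 ranged from 325 to 408 CPM in fasted control and from 246 to 495 CPM in fasted LKO, where S47 (495 CPM) was the highest of all 16 libraries. Its log2 fold change was −0.15 (interval −0.54 to 0.24, adjusted p = 0.654). Abcc4 ranged from 1.09 to 1.63 CPM and from 1.43 to 2.21 CPM (log2 fold change 0.34, interval −0.20 to 0.88, adjusted p = 0.426).

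**Figure D2:**
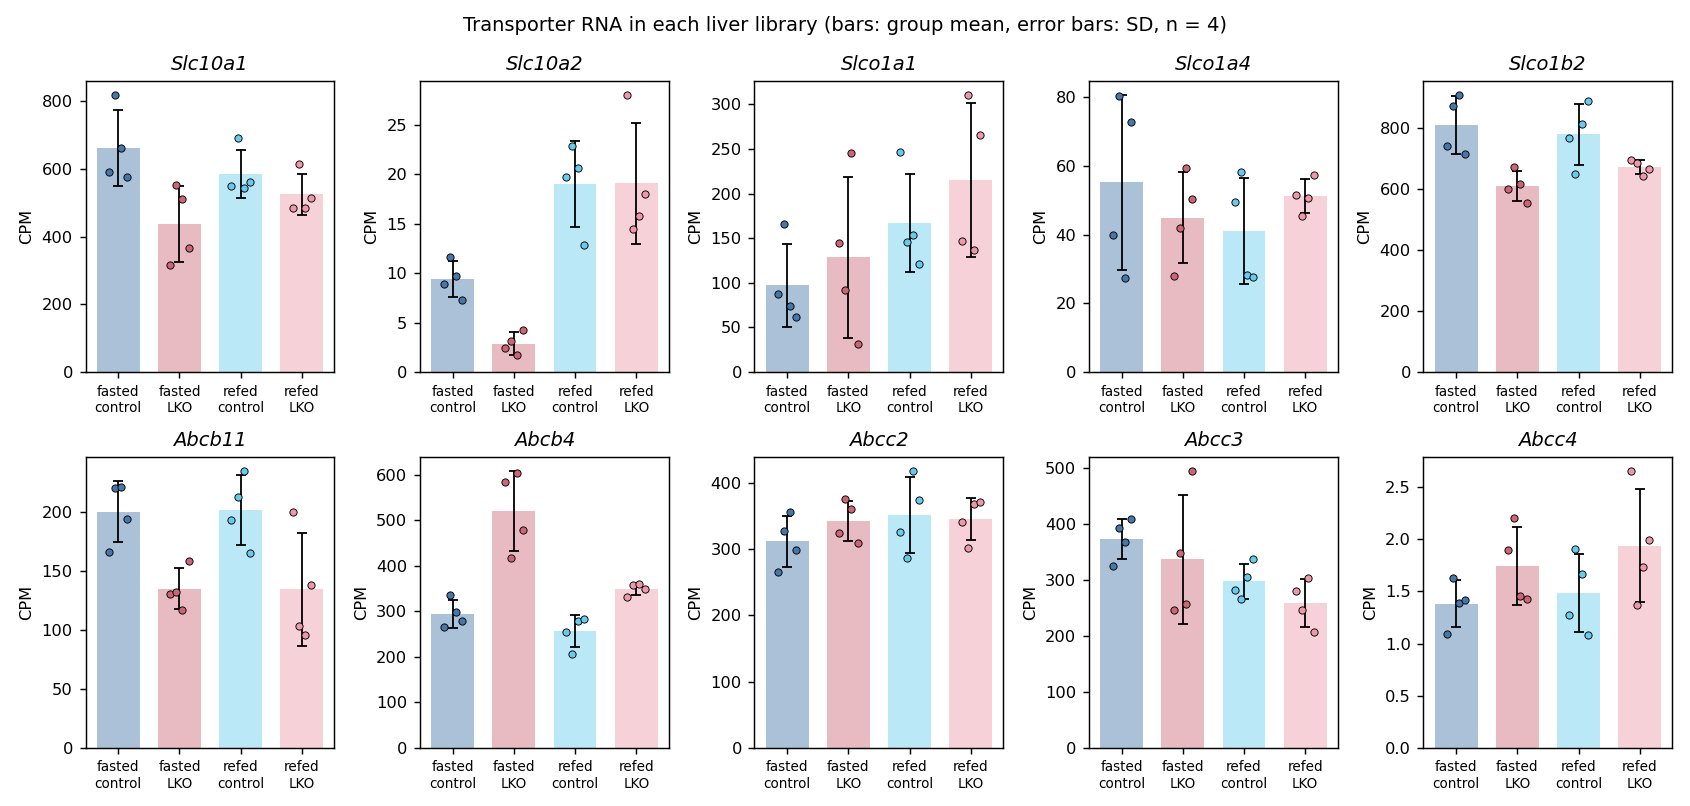
CPM of each transporter in the 4 groups; points are libraries, bars group means and error bars the SD over 4 libraries, with every axis from 0. Slc10a2 is lowest in fasted LKO (1.68 to 4.29 CPM) and Abcb4 highest there (418 to 604 CPM), without overlap with fasted control.

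After refeeding the same question gave 0 of 10 members called, beside 3.63% of genes tested. At an unadjusted p under 0.05, 2 of the 10 members passed, Abcb4 and Abcb11, beside 18.4% of genes tested. DESeq2 called both of these (adjusted p 0.012 and 0.045), and limma-voom called Abcb4 (0.044). edgeR called Abcb4 with upper quartile scaling (0.046), a filter at 5 CPM (0.045), only the refed groups fitted (0.048), or without S45 (0.033) or S46 (0.045). Abcb4 stood at 255, 207, 279 and 284 CPM in refed control and at 331, 358, 361 and 348 CPM in refed LKO. It was the only member of the 10 whose refed groups did not overlap in CPM, beside 11.7% of genes tested. The fitted difference was 0.45 on the log2 scale (SE 0.12, 95% interval 0.19 to 0.71, adjusted p = 0.0534).

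Abcb11 was at about the same levels as in the fasted livers: 192, 213, 235 and 165 CPM in refed control and 199.9, 103, 95.7 and 138 CPM in refed LKO. A single LKO library, S52 (199.9 CPM), lay among the controls and the other 3 lay below all of them. The fitted difference was −0.59 on the log2 scale (SE 0.19, 95% interval −0.99 to −0.18, adjusted p = 0.0984), and without S52 it was −0.84 (adjusted p = 0.0087). The LKO mean was 67.3% of the control mean in the fasted state and 66.6% in the refed state.

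Slc10a2, the member with the largest fasted change, stood at 19.7, 22.9, 20.7 and 12.8 CPM in refed control and at 28.0, 14.5, 15.8 and 18.1 CPM in refed LKO. These ranges overlapped almost fully. The log2 fold change was 0.01, with a 95% interval from −0.50 to 0.51 (adjusted p = 0.995). Slc10a1 (−0.16, interval −0.51 to 0.19, adjusted p = 0.667) and Slco1b2 (−0.21, interval −0.44 to 0.01, adjusted p = 0.294), which fell in the fasted livers, did not pass in the refed ones. The remaining 5 members had log2 fold changes from −0.20 (Abcc3) to 0.38 (Abcc4), with adjusted p from 0.451 to 0.949.

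**Figure D3:**
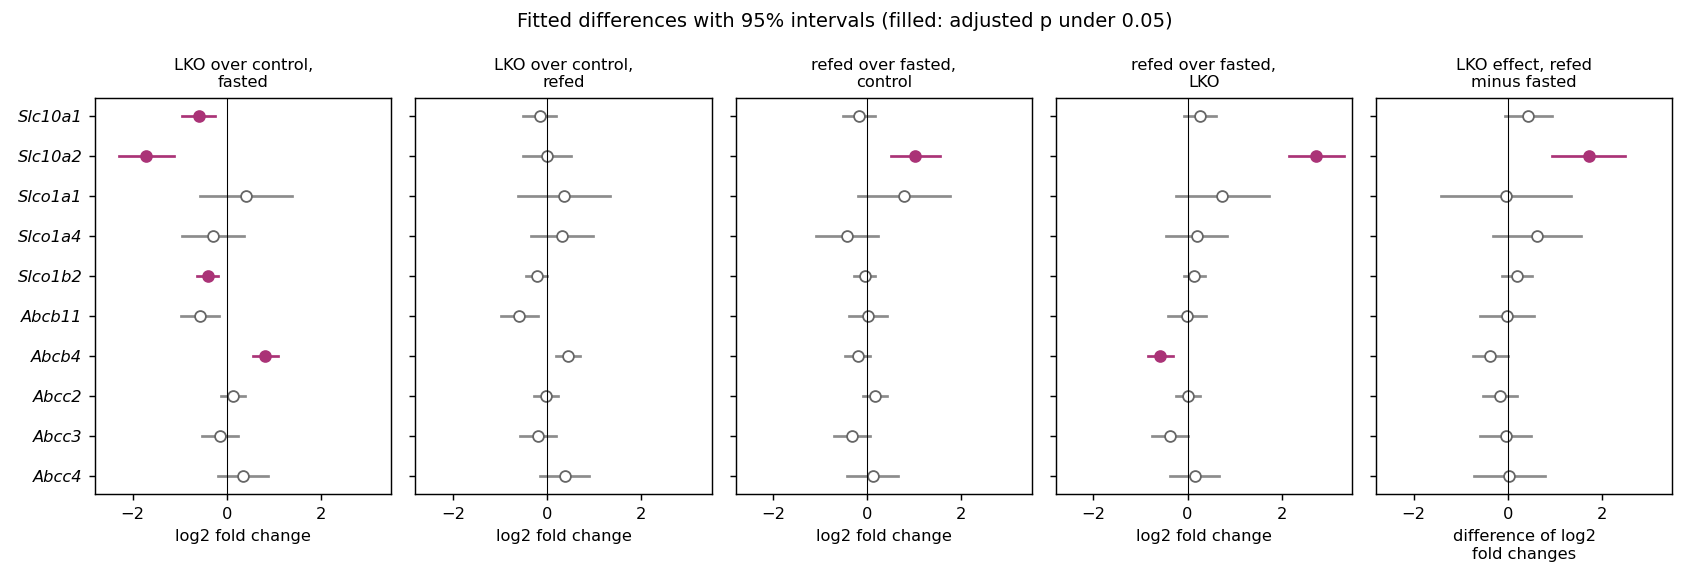
Fitted log2 fold changes (x axis) of the 10 transporters in the 4 group comparisons and, at the right, the difference between the refed and fasted LKO effects; bars are 95% intervals and filled points passed at an adjusted p under 0.05. Slc10a2 passed in 4 of the 5 panels and Abcb4 in 2.

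The feeding comparisons share libraries with the genotype comparisons, so their values are given side by side and not as further support. In control livers refeeding changed 1 of 10 members, Slc10a2, beside 15.4% of genes tested (7.79% higher). In LKO livers it changed 2, Slc10a2 and Abcb4, beside 18.1% (9.28% higher and 8.78% lower). The members whose groups did not overlap numbered 1 in control livers (beside 20.4% of genes tested) and 2 in LKO livers (beside 20.6%).

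Slc10a2 rose with refeeding in both genotypes. In control livers the group mean went from 9.39 ± 1.82 to 19.0 ± 4.34 CPM (SD, n = 4; log2 fold change 1.02, SE 0.25, adjusted p = 0.0119). In LKO livers it went from 2.88 ± 1.12 to 19.1 ± 6.13 CPM, 6.63 times the fasted mean (2.74, SE 0.27, adjusted p = 2.1e-05). Refed libraries all lay above the fasted libraries of their genotype. The lowest refed control value, 12.8 CPM in S51, was close to the highest fasted control value, 11.7 CPM in S41. Both calls were kept in all 8 fits that left out 1 library of the groups compared.

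Abcb4 fell with refeeding in LKO livers, from 521 ± 88.3 to 350 ± 13.5 CPM (SD, n = 4; log2 fold change −0.58, SE 0.12, adjusted p = 0.00421). Every refed LKO library lay below every fasted LKO library, the nearest values being 361 and 418 CPM. In control livers the means were 295 ± 30.8 and 256 ± 35.2 CPM, with overlapping groups (−0.20, interval −0.46 to 0.06, adjusted p = 0.292). The other 8 members did not pass in either genotype. Abcb11 and Abcc2 had fitted changes between −0.00 and 0.17, with intervals reaching from −0.41 to 0.43. For Abcc3 the estimates were −0.33 (interval −0.72 to 0.06) in control and −0.38 (interval −0.76 to 0.01) in LKO livers, with adjusted p of 0.245 and 0.173. Slco1a1 had the widest intervals, with estimates of 0.78 (−0.21 to 1.76) and 0.74 (−0.24 to 1.72) and adjusted p of 0.282 and 0.298.

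Whether the effect of LKO differed between the feeding states was tested directly. It was called for 1 of 10 members, Slc10a2, beside 0.538% of genes tested (0.311% higher). The difference of its log2 fold changes, refed minus fasted, was 1.72 (SE 0.37, 95% interval 0.94 to 2.49, adjusted p = 0.0447). That call was close to the threshold: leaving out a library at a time, it was lost for 13 of the 16 (adjusted p up to 0.092, without S40 or S44), kept only without S45, S47 or S49, and it was lost under limma-voom (0.060), while the estimate stayed between 1.47 and 1.96. For Abcb4 the difference was −0.37 (SE 0.17, adjusted p = 0.295), for Slc10a1 0.44 (SE 0.23, adjusted p = 0.361) and for Abcb11 −0.01 (SE 0.27, interval −0.58 to 0.55, adjusted p = 0.987). The fasted falls of Slc10a1 and Slco1b2 are therefore not shown to differ from their refed values.

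Other genes of bile formation were taken from lists written with earlier results known. Of 17 further hepatobiliary transporters 14 could be tested. In fasted LKO 0 of the 14 rose and 3 fell, beside 5.75% and 6.48% of all genes tested. The median log2 fold change was −0.33 over the 14 and 0.02 over all genes tested. Slc22a7, the organic anion transporter OAT2, went from 38.6 ± 7.72 to 12.0 ± 3.96 CPM (SD, n = 4; −1.68, SE 0.26, adjusted p = 8.3e-04). It was also lower in refed LKO, at 76.6 ± 8.81 CPM in control against 33.2 ± 10.5 CPM in LKO livers (−1.20, SE 0.25, adjusted p = 0.0146). Slc22a7 was the only gene of the 14 called there, beside 3.63% of all genes tested. Abcc6, an ATP-binding cassette gene of the basolateral membrane, fell by 0.54 on the log2 scale (SE 0.09, adjusted p = 0.0013), and Abcb1a, a canalicular drug pump at 3.88 ± 0.54 CPM in fasted control, by 0.80 (SE 0.25, adjusted p = 0.0465). Abcg5 and Abcg8, whose proteins together export sterol into bile, had fasted log2 fold changes of −0.56 and −0.55 (adjusted p 0.132 and 0.237). Refeeding raised 4 of the 14 in control livers (Slc51b, Slc22a7, Abcg2 and Atp8b1) and 3 in LKO livers (Slc22a7, Abcb1a and Atp8b1), and lowered 0 in either. Of all genes tested, 7.79% were called higher with refeeding in control livers and 9.28% in LKO livers. Slc51a and Slc51b, which encode the paired basolateral exporter OSTα-OSTβ, had group means of at most 0.42 and 1.34 CPM.

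Of 16 receptors and regulators 14 were tested, and in fasted LKO 2 rose and 0 fell, beside 5.75% and 6.48% of all genes tested. The 2 that rose were S1pr2, a sphingosine phosphate receptor that also binds conjugated bile acids (0.78, SE 0.20, adjusted p = 0.0194), and Nfe2l2, which encodes NRF2 (0.53, SE 0.16, adjusted p = 0.0359). Nr1h4 itself did not pass in any of the 5 contrasts. Its group means lay between 152 and 168 CPM, and its fasted LKO effect was 0.13 (adjusted p = 0.497). Nr0b2, the FXR target that encodes the repressor SHP, was at 86.5 ± 32.3 CPM in fasted control and 38.5 ± 8.98 CPM in fasted LKO (SD, n = 4), overlapping groups that missed the threshold (−1.17, SE 0.39, adjusted p = 0.0622). In the refed groups it stood at 61.0 ± 28.3 and 62.9 ± 32.0 CPM. In the refed comparison 0 of the 14 were called, beside 3.63% of all genes tested. Among 16 genes of bile acid synthesis and conjugation, 3 rose and 3 fell in fasted LKO, beside the same shares of all genes tested. Slc27a5, the bile acid CoA ligase, was among those that fell (−0.43, SE 0.11, adjusted p = 0.0196). In refed LKO, 2 of the 16 rose and 1 fell, beside 3.63% of all genes tested called in either direction.

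Canalicular pumps are held in the membrane by scaffold proteins, and the list of these had 9 genes tested. In fasted LKO 1 fell and 0 rose, beside 6.48% and 5.75% of all genes tested. Slc9a3r1, which encodes the PDZ scaffold NHERF1 (EBP50), went from 309 ± 37.5 to 167 ± 42.4 CPM (SD, n = 4; −0.89, SE 0.16, adjusted p = 0.0023). In LKO livers it then rose with refeeding, to 477 ± 74.7 CPM (1.51, SE 0.16). Its difference between the states was called (1.06, SE 0.23, adjusted p = 0.0447), so it was the other gene of these lists, beside Slc10a2, with a called difference. This call too was close to the threshold, and fits without single libraries are not given for Slc9a3r1. Over all genes tested, 78 had a called difference, against 9 without S48 and 295 without S49. Rdx, which encodes radixin, the anchor of Abcc2, rose with refeeding in control livers (0.32, SE 0.09, adjusted p = 0.0187). In refed LKO against refed control 0 of the 9 were called, beside 3.63% of all genes tested. Male-biased liver genes, listed because Slco1a1 is male-predominant, had 0 of 10 called in the fasted comparison and 1 of 10 in the refed one, Ugt2b1, which was lower (−0.85, SE 0.20, adjusted p = 0.0280). Of the female-biased list 2 of 9 genes were above the filter, with 0 called in fasted LKO and 1 in refed LKO, Cyp2b13, which fell from 15.4 ± 8.57 to 0.68 ± 0.93 CPM (SD, n = 4; −4.42, SE 1.07, adjusted p = 0.0318).

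Markers of position along the lobule moved too, beside 12.2% of all genes tested called in fasted LKO and 3.63% in refed LKO. Of 8 pericentral hepatocyte genes 3 fell (Glul, Cyp1a2 and Slc1a2) and 1 rose (Axin2) in fasted LKO (median −0.74), and 2 fell in refed LKO (median −0.34). Of 7 periportal genes 1 rose and 1 fell in the fasted comparison, and 1 rose in the refed one. Called or not, 5 of the 7 periportal genes were lower in LKO in each state, with medians of −0.51 when fasted and −0.31 when refed. Their part in the transporter values was not tested. Summed stellate, endothelial, macrophage and lymphocyte markers overlapped between fasted control and fasted LKO. Single markers of other cell types were called in that comparison. Dcn (stellate cells or fibroblasts) was higher, at 93.1 ± 7.63 CPM in control and 120 ± 10.3 CPM in LKO livers (SD, n = 4; adjusted p = 0.0413). Cfd (adipocytes) was lower, at 34.4 ± 23.0 against 3.24 ± 4.27 CPM (adjusted p = 0.0182), and so was Alas2 (red blood cells), at 146 ± 17.4 against 71.4 ± 12.8 CPM (adjusted p = 5.0e-04). Their part in the transporter values was likewise not tested. Kidney tubule markers were at 0.19 to 7.45 CPM in sum over all libraries, and Lrp2, the only one tested, was higher in LKO in both states.

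How the members varied together was described over the 16 libraries, as 45 pairs on log2 CPM. The closest relation was an inverse one between Slco1a1 and Abcc3 (Pearson's r = −0.85, permutation p = 3.0e-05, adjusted over 45 pairs 0.00135). Spearman's rho was −0.73 (permutation p = 0.00207, adjusted 0.0931), so by ranks the pair did not pass the adjustment. Without the 2 libraries farthest from the median of Slco1a1, r was −0.70. Taken as deviations from the group means, which removes any difference between groups, r was −0.79, with no test. The p-values given are for the pooled values, and the 16 libraries belong to 4 groups, so they do not measure variation within groups. In each of the 4 groups the library with the least Slco1a1 had the most Abcc3, as in S47, with 31.5 CPM of Slco1a1 and 495 CPM of Abcc3. The pair was singled out after all 45 had been computed. Slc10a2 and Abcb4 were inversely placed as well, but the fasted LKO libraries form a cluster of their own there, so that no pooled r is given. As deviations from the group means, and with no test, r was −0.48 and rho −0.45 for that pair, and r was 0.78 and rho 0.81 for Slc10a2 with Abcb11. Both were likewise picked after all 45 had been computed. Over the 16 libraries Slc10a2 with Abcb11 had an r of 0.40 and a rho of 0.41. Among the other pairs, deviations gave an r of 0.72 for Slco1b2 with Abcc2 and 0.70 for Abcb11 with Abcc4.

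**Figure D4:**
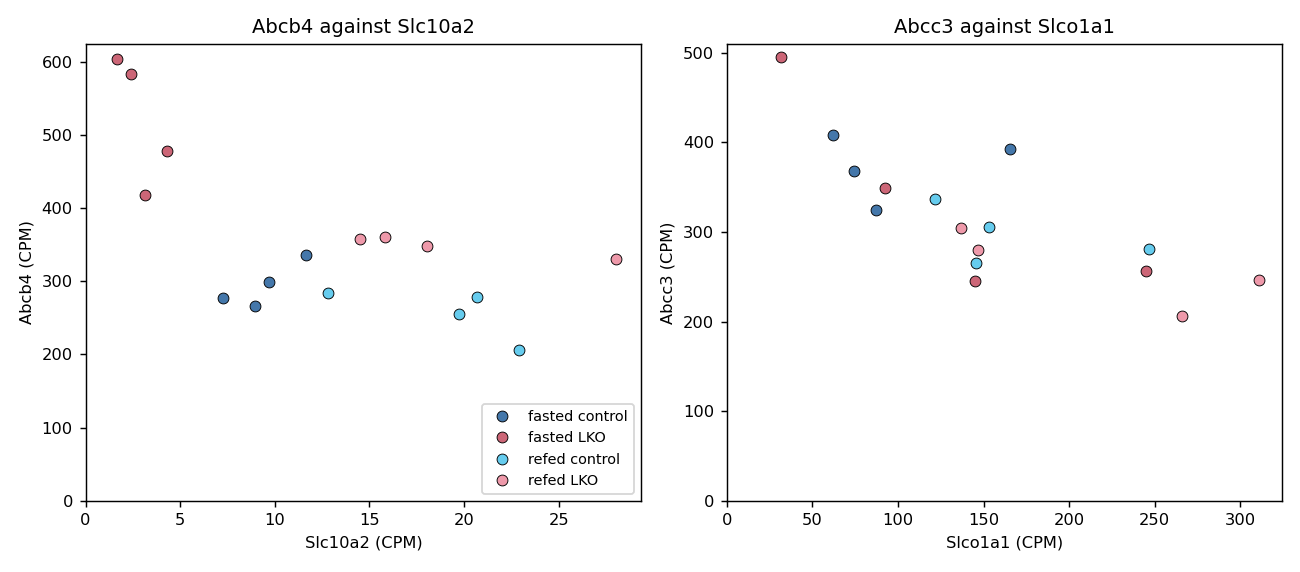
Left, Abcb4 against Slc10a2; right, Abcc3 against Slco1a1, both in CPM with each point a library coloured by group. The 4 fasted LKO libraries sit apart at the upper left of the left panel, whereas in the right panel the groups mix along a falling band.

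By a rule written with the design, the protein-coding gene whose log2 CPM followed each member most closely over the 16 libraries was found among the genes with a mean of at least 5 CPM. For Abcb4 it was Acot2, an acyl-CoA thioesterase of mitochondria (r = 0.97), and for Slc10a2 it was Usp39, a splicing factor (r = 0.96). The nearest gene was Slc17a1, a sodium phosphate and anion transporter, for Abcb11 (r = 0.92), Itm2b for Abcc3 (r = 0.90), Smarcd2 for Slc10a1 (r = 0.90) and Dpp8 for Abcc2 (r = 0.89). Slco1a4 and Abcc4 had the least close neighbours, Mindy2 (r = 0.75) and Eed (r = 0.77). These values are descriptions from a search of 8893 or 8894 genes, and libraries of a group share its treatment.

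Promoter sequence was read for every member with a RefSeq entry, and is printed for the members called in the fasted livers and for Abcb11. RefSeq windows of 300 bases on GRCm38.p6, from 250 bases before to 50 after an annotated start, were found for 9 of the 10 members, in 11 windows. They were searched on both strands for the nuclear receptor element AGGTCA, bound by many receptors of that family, and for the inverted repeat of that element with 1 base between, the type bound by FXR. The TATA box was searched as TATAAA. The CCAAT box was searched by the letters of its name. The inverted repeat contains the receptor element and was counted on its own as well. The receptor element was in 5 of the 11 windows, beside 16.3% of 32851 mouse windows of this length. The inverted repeat was in 0 of the 11 and in 0.00913% of all windows. Only exact letters were counted, and exact matches are so rare that the 0 does not tell whether a member has an FXR element. The Abcb11 window holds aggccatTGACCT, which is 1 letter off the inverted repeat, and only its exact element is in capitals. Matches are printed in capitals, 5′ to 3′ on the strand of the gene.
Slc10a1, chr12:80968030-80968329, minus strand: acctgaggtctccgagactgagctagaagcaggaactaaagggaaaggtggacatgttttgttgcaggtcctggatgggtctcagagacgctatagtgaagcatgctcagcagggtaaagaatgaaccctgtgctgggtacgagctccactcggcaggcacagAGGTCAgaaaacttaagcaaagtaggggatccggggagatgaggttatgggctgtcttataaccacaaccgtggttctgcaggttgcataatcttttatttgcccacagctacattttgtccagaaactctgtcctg
Slco1b2, chr6:141629268-141629567, plus strand: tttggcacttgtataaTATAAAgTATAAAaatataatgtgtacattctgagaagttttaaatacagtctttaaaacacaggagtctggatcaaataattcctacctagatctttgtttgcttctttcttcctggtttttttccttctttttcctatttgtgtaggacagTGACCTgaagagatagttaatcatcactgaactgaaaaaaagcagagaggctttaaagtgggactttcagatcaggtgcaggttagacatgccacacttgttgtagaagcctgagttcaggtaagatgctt
Abcb11, chr2:69342567-69342866, minus strand: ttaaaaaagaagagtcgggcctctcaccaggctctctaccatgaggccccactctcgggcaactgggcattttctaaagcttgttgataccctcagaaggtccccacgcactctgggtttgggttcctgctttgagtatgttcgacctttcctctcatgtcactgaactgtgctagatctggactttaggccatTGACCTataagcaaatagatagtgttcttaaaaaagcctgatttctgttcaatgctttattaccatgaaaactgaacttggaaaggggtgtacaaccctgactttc
Slc10a2, chr8:5105238-5105537, minus strand: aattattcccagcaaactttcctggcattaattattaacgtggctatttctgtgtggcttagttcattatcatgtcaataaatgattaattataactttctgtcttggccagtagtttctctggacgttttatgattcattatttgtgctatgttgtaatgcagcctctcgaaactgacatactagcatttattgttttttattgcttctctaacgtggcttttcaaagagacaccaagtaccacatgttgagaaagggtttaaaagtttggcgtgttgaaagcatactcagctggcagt
Abcb4, chr5:8893471-8893770, plus strand: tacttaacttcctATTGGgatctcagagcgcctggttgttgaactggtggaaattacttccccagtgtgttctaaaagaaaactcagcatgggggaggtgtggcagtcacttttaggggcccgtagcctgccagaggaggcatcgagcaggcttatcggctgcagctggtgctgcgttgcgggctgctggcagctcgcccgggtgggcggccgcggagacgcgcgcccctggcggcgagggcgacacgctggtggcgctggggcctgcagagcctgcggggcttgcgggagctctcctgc

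Counted from the annotated start, the receptor element began at −87 in the Slc10a1 window shown and, on the other strand, at −81 in Slco1b2 and at −56 in Abcb11. It was also in the windows of Abcc2 (at −49) and Slco1a1 (at −24 and, on the other strand, at −134). Abcc2 and Slco1a1, like Abcb11, were not called in any comparison. A second RefSeq start of Slc10a1 had a TATA box match on the other strand, at −128, and no receptor element. TATA box matches also began at −234 and −227 in Slco1b2. The Slc10a2 window held none of the 4 motifs, and that of Abcb4 held only a CCAAT match on the other strand, at −237. The TATA box was in 13.6% and the CCAAT box in 37.4% of all windows. These are matches of letters, and no binding was measured.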

How the data were processed

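Poly(A) RNA from liver was sequenced in 16 libraries. Per the submitters' processing notes, reads were aligned with HISAT2 2.0.5 and the build is mm39; the counting tool, its use of strand and the annotation release are not given in the sources used here. The authors deposited 4 tables of 8 libraries each with raw read counts per gene, joined here on the gene identifier. No count differed between tables holding the same library, and 3148 genes missing from a table were set to 0 in its libraries. The authors' group means in each table (deposited signal on a library-scaled scale) were recomputed from the counts by least squares, 8 of 8, which tied the unnumbered library columns to groups. A further 64 per-library columns (scaled values and FPKM) were not used. The authors' deposited log2 fold changes and p-values were used only where named. Gene length is as given per the file headers.

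Counts were fitted with edgeR 4.0.16 (R 4.3.3): 16 libraries, 4 groups, TMM factors of 0.941 to 1.07, quasi-likelihood tests, and Benjamini-Hochberg adjustment over the 14488 genes kept by filterByExpr. Genes were called at an adjusted p under 0.05. The fitted biological coefficient of variation was 0.185. Tested on simulated data for the fasted comparison (14488 genes, 50 changed per fold), 43 genes at 2-fold, 50 at 4-fold, 48 at 0.5-fold and 50 at 0.25-fold were recovered, with 12 false calls. Alternatives were DESeq2 1.42.0, limma-voom (limma 3.58.1), other scalings and filters, fits of only the groups compared, and fits without each library. Pair correlations used 100000 resamples (SciPy 1.17.1). Promoters came from RefSeq on GRCm38.p6, and their coordinates were not mixed with those of the tables. All 10 members are described. For each member the nearest gene is the one with the highest Pearson's r. The members and lists were chosen with earlier results of these data known. A planned comparison of protein sequences was not run.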

Additional observations from a re-analysis of the deposited data

Results flagged for a closer look

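Slc10a1 in refed control library S49 stood at 692 CPM, apart from the other 3 refed control libraries at 544 to 560 CPM. The gap was 0.89 of the group's range, above Dixon's 95% critical value for 4 samples. It was the 1 library singled out in 40 groups of 4 values (10 genes in 4 groups), and chance alone singles out about 1 in 20.

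The LKO effect on Slc10a2 differed between the feeding states by 1.72 on the log2 scale in the edgeR test of the difference (adjusted p = 0.0447), being −1.71 in fasted and 0.01 in refed livers. The call was lost in 13 of 16 fits that left out 1 library.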

How the results depend on the processing

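No paired analysis was possible because the count columns carry no replicate number. The members called in fasted LKO numbered 4, against 5 with DESeq2, 5 when genes under a mean of 5 CPM were dropped and 3 with only the 2 groups compared, and 2 to 5 without 1 library. In refed LKO the count was 0, against 1 with upper quartile scaling, 1 when genes under a mean of 5 CPM were dropped, 2 with DESeq2, 1 with limma-voom and 1 with only the 2 groups compared, and 0 to 1 without 1 library. The difference between states was called for 1 member, for 0 with limma-voom, and for 0 to 1 without 1 library. Both refeeding counts were the same without any 1 library. The cause of these changes was not tested, except that fits of fewer libraries hold fewer samples.

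Signs turned only for values that were not called. With limma-voom Slc10a2 in refed LKO was −0.015 and the Slco1a1 difference between states 0.17. For Abcb11 in LKO refeeding the value was 3.5e-04 with DESeq2 size factors, 0.0088 without a filter, 2.4e-04 with DESeq2 and 0.0041 with only the 2 groups compared. Abcc2 in LKO refeeding was −0.0062 with upper quartile scaling. Without 1 library, the ranges that crossed 0 were −0.12 to 0.79 for Slco1a1 in fasted LKO, and −0.24 to 0.11 for Slc10a2 and −0.10 to 0.072 for Abcc2 in refed LKO. In control refeeding they were −0.12 to 0.019 for Slco1b2, −0.074 to 0.093 for Abcb11 and −0.022 to 0.24 for Abcc4. In LKO refeeding they were −0.26 to 0.13 for Abcb11, −0.031 to 0.073 for Abcc2 and −0.034 to 0.29 for Abcc4. For the difference between states they were −0.42 to 0.50 for Slco1a1, −0.27 to 0.12 for Abcb11, −0.17 to 0.20 for Abcc3 and −0.15 to 0.19 for Abcc4. With unscaled totals 0 of 40 group levels moved by more than 1 SD. Depth limits Abcc4 most, at 16 to 52 counts per library.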

Other observations

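The authors' deposited tables give fold changes of control over LKO and of fasted over refed, so their signs are turned here to LKO over control and refed over fasted. With the sign turned, the authors' deposited table of the fasted comparison gives Abcb11 a log2 fold change of −0.58 and an adjusted p of 4.2e-04. Their deposited table of the refed comparison, turned likewise, gives Abcb4 0.45 and an adjusted p of 0.0021. The authors' deposited table for refeeding of control livers, turned likewise, gives Abcc3 −0.33 and an adjusted p of 0.021. None of these 3 was called by edgeR over all 16 libraries, with adjusted p of 0.0601, 0.0534 and 0.245. For Abcb11 in refed livers, which DESeq2 called here (0.045), the authors' deposited table, turned likewise, gives −0.58 and an adjusted p of 0.084.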
